A study of Mus musculus with 29 samples.

Results

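The 36 genes described here encode subunits of glutamate receptors and proteins of the postsynaptic density, the protein sheet beneath the receptors of excitatory synapses. They were taken by name: 4 AMPA receptor subunits, 5 NMDA receptor subunits, 6 kainate and delta receptor subunits, 6 metabotropic glutamate receptors, 4 Dlg proteins, 4 Dlgap proteins, 5 Shank and Homer proteins and 2 subunits of the kinase CaMKII. All 36 of 36 were in the table of 18240 genes and passed the filter for low values (10 or more in 3 or more libraries), as did 17881 genes in all. None of them passed through 1 group alone, since the lowest value of any of them in any library was 166, for Homer3.

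Polyadenylated RNA of prefrontal cortex was sequenced in bulk from C57BL/6J mice of postnatal day 40, in 29 libraries. The mice carried 1 copy of the K228E allele of Tbr1 (Tbr1+/K228E, here HT) or were wild type (WT). HT mice were given fluoxetine, a serotonin reuptake inhibitor (4 female and 4 male libraries), lithium, a mood stabiliser (3 female and 4 male libraries), or vehicle (3 female and 3 male libraries), and WT mice were given vehicle (4 female and 4 male libraries). No WT mice given a drug are among the samples, so each drug was measured only in carriers. The labels name 1 batch and give no dose, route or duration. They do not say that each library came from a separate mouse, so the p-values below measure the spread between libraries.

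Glutamate is the main excitatory transmitter of the cortex. AMPA receptors carry most of the fast synaptic current, NMDA receptors let in calcium when transmitter release and depolarisation coincide, and metabotropic receptors act through G proteins. Dlg, Dlgap, Shank and Homer proteins join in layers that tie these receptors to each other and to the cytoskeleton, and CaMKII is a calcium-activated kinase of the same structure. TBR1 belongs to the T-box transcription factors and is best known from neurons of the deep cortical layers.

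Values are read counts divided by 1 size factor per library (normalised read counts). The libraries held 22.81 M to 31.71 M reads. Summed markers of cortical excitatory neurons (5 genes, among them Slc17a7, Neurod6 and Emx1) lay between 41832 and 60872, so these markers were read in every library. They do not show which cortical area was taken. Summed markers of the olfactory bulb (10 genes, among them Eomes and Tbx21) ran from 766 to 17756, and summed striatal markers (17 genes, among them Drd1 and Drd2) from 8252 to 29400. Of the striatal markers 3, Isl1, Six3 and Ido1, had a median under 10 over all libraries. In the means of the lists used below each gene has the same weight, so these 3 low genes count as much as Drd1. In 11 libraries the mean of the striatal or the olfactory list lay more than 1 on the log2 scale above the median library (7 for the striatal and 4 for the olfactory list). From HT fluoxetine they were females 1, 2 and 3 and males 1 and 2. From HT lithium they were female 2 and male 2, and from HT vehicle male 1. From WT vehicle they were females 1 and 3 and male 3. Without them female 4 is the only female library of HT fluoxetine, so fluoxetine estimates there rest on it for that sex. No library was left out for being low in a list. On the olfactory list HT lithium male 1 lay at -2.74 and male 3 at -3.73 from the median library, and both stayed. Estimates with both list means in the model, or without these 11 libraries, are given below beside the results they moved most.

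Levels per kb of exon spanned a wide range. The length counts every annotated exon of a gene, whichever transcripts were present, so comparisons between genes are rough. Camk2a, the alpha subunit of CaMKII, stood highest with a mean of 12632 per kb over all libraries, and was above every other gene of the list in each of the 29 libraries. Camk2b, the beta subunit, followed with 2604 per kb. Dlgap3 (also called SAPAP3) had 2375, Dlg4 (PSD-95, the most studied scaffold of the density) 1959 and Shank1 1890. The highest receptor genes were Gria1 at 1851 per kb, Grin1, which encodes the obligatory NMDA receptor subunit, at 1742, and the kainate receptor gene Grik5 at 1399. At the other end stood Homer3 at 69.8, the presynaptic metabotropic receptor gene Grm8 at 59.6 and the kainate receptor gene Grik1 at 58.5 per kb. The ranges of neighbours over libraries mostly overlapped, in 32 of 35 neighbouring pairs. The pairs with separate ranges were Camk2a above Camk2b, Grin1 above Grik5, and Dlg3 above Dlgap4. Compared within each library, 4 of the 35 pairs kept their order in all 29 libraries, these pairs and Dlgap3 above Dlg4.

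**Figure D1:**
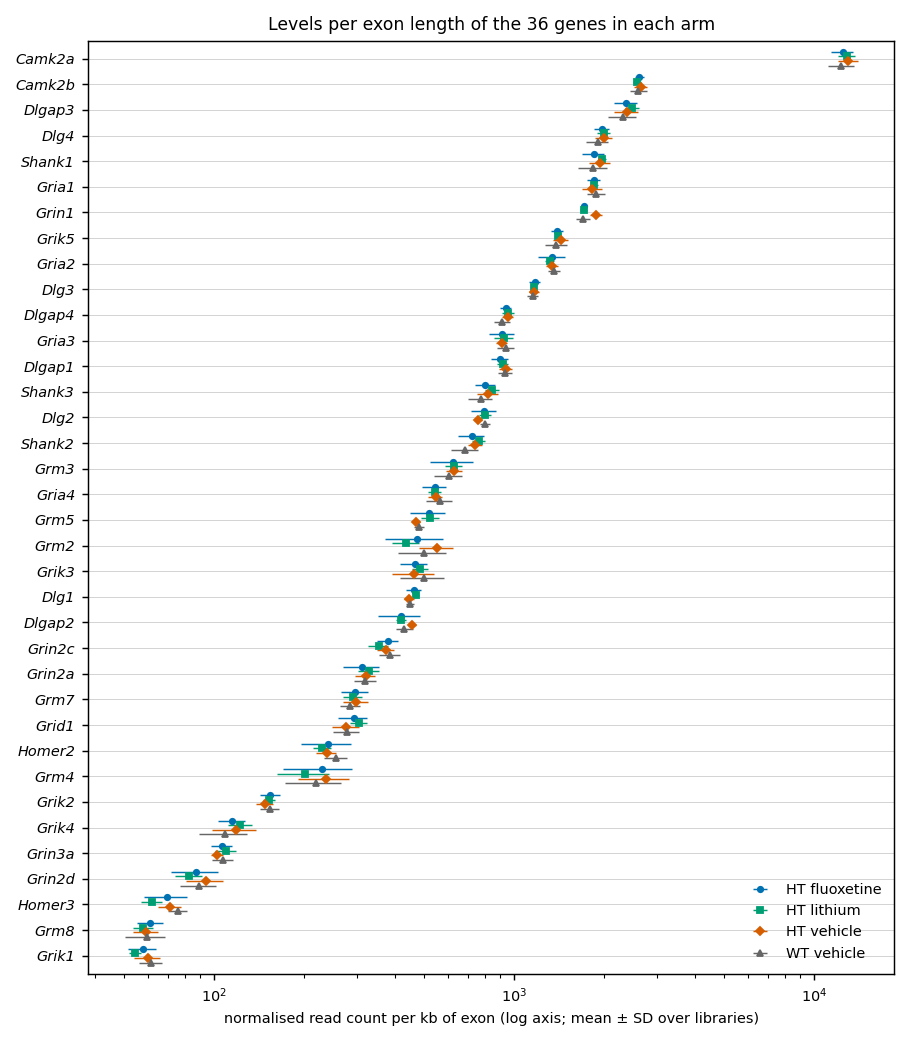
Mean normalised read count per kb of exon (log axis) of each of the 36 genes in HT fluoxetine, HT lithium, HT vehicle and WT vehicle libraries, with bars of 1 SD over libraries. Genes run from Camk2a at 12632 per kb over all libraries to Grik1 at 58.5, and the 4 marks of a gene lie close together beside the distance between genes.

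Proportions within families were read per length of all annotated exons, and depend on that length. Gria2 had a mean of 20820.5 normalised read counts over all libraries and 15548 bases of exon, and Gria1 had 11183 and 6043. For Grin2a these were 5724 and 17933, and for Grin2c 1883 and 5037. Among AMPA receptor genes, Gria1 made up 39.8% ± 1.7 of the per-length sum in HT fluoxetine libraries, 40.0% ± 1.3 in HT lithium, 39.4% ± 2.2 in HT vehicle and 39.7% ± 2.4 in WT vehicle (SD, n = 8, 7, 6 and 8). Gria2, whose edited subunit keeps AMPA receptors closed to calcium, made up 28.8% ± 1.4, 28.3% ± 0.54, 29.04% ± 0.86 and 28.7% ± 1.1 in the same order. The ranges of all arms overlapped for both genes. The ratio of Dlg4 to Dlg1 per length was 4.25 ± 0.29 in HT fluoxetine, 4.23 ± 0.19 in HT lithium, 4.46 ± 0.27 in HT vehicle and 4.22 ± 0.28 in WT vehicle libraries. The ratio of Shank1 to Shank3 was 2.30 ± 0.14, 2.33 ± 0.12, 2.37 ± 0.18 and 2.38 ± 0.18 in the same order. That of Camk2a to Camk2b was 4.78 ± 0.57, 5.03 ± 0.45, 4.93 ± 0.58 and 4.78 ± 0.65, and that of Grin2a to Grin2c was 0.83 ± 0.14, 0.93 ± 0.13, 0.86 ± 0.068 and 0.83 ± 0.11. For the metabotropic receptor genes, the ratio of Grm5 to Grm2 was 1.15 ± 0.33 in HT fluoxetine, 1.22 ± 0.18 in HT lithium, 0.86 ± 0.12 in HT vehicle and 0.99 ± 0.22 in WT vehicle libraries. The ratios were not tested, and both genes are tested singly below.

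The spread between libraries of 1 group differed between genes. The SD within groups on the log2 scale had a median of 0.12 over the 36 genes and 0.13 over all genes tested. Over genes with a mean of at least 200 it was 0.095, and the lowest mean of the 36 was 240, for Homer3. At like levels the 36 therefore varied somewhat more than other genes by this median. It was lowest for Dlg3 (SAP102, a scaffold of developing synapses) at 0.055, Dlg1 (SAP97) at 0.058 and Grin1 at 0.059. It was highest for Grm4, a presynaptic group III metabotropic receptor gene, at 0.31, followed by Grm2 at 0.23, Grin2d at 0.22 and Grik4 at 0.21. The highest library of Grm4 was 2.22 times its lowest, and that of Dlg3 1.14 times its lowest.

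Promoters are shown for 4 members because Tbr1 encodes a T-box factor and because Grin1 and Grm2 head the differences below. RefSeq windows of 250 bases before to 50 after a gene's start (GRCm38.p6) existed for 24 of the 36 genes, in 37 windows. The windows were searched on both strands for the T-box site TCACACCT, for its shorter core GTGTGA and for the GC box GGGCGG. The longer site contains the core on the opposite strand, so each match of the longer site is also a match of the core. The T-box site was found in 0 of the 37 windows, and in 1.28% of all 32851 windows. The core was found in 2 of the 37, 1 each of Dlgap3 and Grin2c, and in 14.5% of all windows. The GC box was found in 19 of the 37, and in 35.7% of all windows. In the sequences below, 5′ to 3′ on the gene's strand, capitals mark the GC boxes and the T-box core.
Grin1 (chr2:25319138-25319437, minus strand): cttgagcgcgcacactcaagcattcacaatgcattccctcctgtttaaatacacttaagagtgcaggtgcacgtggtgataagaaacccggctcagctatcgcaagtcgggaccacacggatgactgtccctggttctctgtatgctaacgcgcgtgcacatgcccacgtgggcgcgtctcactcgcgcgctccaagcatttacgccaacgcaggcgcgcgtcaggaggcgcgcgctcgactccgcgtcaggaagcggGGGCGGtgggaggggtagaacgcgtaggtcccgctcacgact
Grm2 (chr9:106656060-106656359, minus strand): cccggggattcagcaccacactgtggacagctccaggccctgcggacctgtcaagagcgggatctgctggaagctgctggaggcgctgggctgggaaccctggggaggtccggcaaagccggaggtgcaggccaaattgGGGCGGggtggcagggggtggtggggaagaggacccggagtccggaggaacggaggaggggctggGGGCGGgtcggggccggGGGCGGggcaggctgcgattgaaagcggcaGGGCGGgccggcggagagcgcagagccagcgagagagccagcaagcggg
Grin2c (chr11:115267194-115267493, minus strand): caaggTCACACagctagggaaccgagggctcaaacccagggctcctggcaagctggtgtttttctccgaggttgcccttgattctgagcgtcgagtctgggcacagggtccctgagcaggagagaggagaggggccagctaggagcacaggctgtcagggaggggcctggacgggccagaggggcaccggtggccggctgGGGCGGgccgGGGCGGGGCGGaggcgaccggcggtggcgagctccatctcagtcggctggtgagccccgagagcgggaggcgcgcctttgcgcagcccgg
Dlgap3 (chr4:127172630-127172929, plus strand): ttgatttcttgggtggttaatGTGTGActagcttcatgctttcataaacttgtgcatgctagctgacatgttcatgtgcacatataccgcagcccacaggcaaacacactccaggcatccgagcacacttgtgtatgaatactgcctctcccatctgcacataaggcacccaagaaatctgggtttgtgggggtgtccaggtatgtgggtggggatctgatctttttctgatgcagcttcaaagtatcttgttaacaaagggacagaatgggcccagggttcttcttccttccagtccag
The Grin1 window holds 1 GC box and the Grm2 window 4. The Grin2c window holds the core in reverse complement (TCACAC) near its start and 3 GC boxes, and the Dlgap3 window holds the core and no GC box. The Dlgap3 window surrounds a RefSeq start that lies inside the gene as annotated, whose first base is at 127169204.

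The effect of the K228E allele was read from HT vehicle against WT vehicle libraries. Tbr1 itself ran from 2858 to 4766 with a median of 4275 in HT fluoxetine libraries, from 3777 to 4738 (median 4533) in HT lithium, from 3728 to 4593 (median 3919) in HT vehicle and from 2151 to 3432 (median 3035) in WT vehicle. Every HT vehicle and HT lithium library lay above every WT library. HT fluoxetine female 1, at 2858, lay within the WT range, and the next HT fluoxetine library, at 3939, lay above it. Against WT vehicle the log2 difference was 0.54 for HT fluoxetine and 0.63 for HT lithium. Tbr1 was higher in HT vehicle than in WT by 0.52 ± 0.090 on the log2 scale (limma, adjusted p = 0.0164). It missed the threshold in 3 of 42 alternatives, at a similar size: 0.47 when HT vehicle female 1 was left out (adjusted p = 0.0643), 0.47 when male 3 of that arm was (adjusted p = 0.0963), and 0.52 when the 11 libraries high in tissue markers were (adjusted p = 0.0919). Reads summed per gene do not separate the alleles, so this level does not test the genotype labels.

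None of the 36 genes passed an adjusted p of 0.05 between HT vehicle and WT vehicle in limma, where 0.207% of all genes did. At an unadjusted p under 0.05 there were 2 of the 36, Grin1 and Shank2, against 12.3% of all genes, and edgeR on the recovered reads called 0 of the 36 (1 at an unadjusted p under 0.05). DESeq2 called 1, Grin1. Over all genes, settings other than leaving 1 library out called up to 212, beside 37 in limma. For 29 of the 36 the 95% interval of the difference lay within 1.2-fold in both directions, as it did for 57.6% of all genes. No member had HT vehicle and WT libraries that did not overlap, against 0.336% of all genes. In these bulk samples fewer cells of a type and less RNA per cell cannot be told apart.

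Grin1 (ENSMUSG00000026959, GRCm38 chromosome 2, 25291181 to 25319187, minus strand) lies 36.5 Mb from Tbr1 on the same chromosome. It ran from 16784 to 19259 with a median of 18194 in HT vehicle libraries, and from 14817 to 17719 with a median of 16812 in WT. Of the 6 HT vehicle libraries, 5 lay above all 8 WT libraries and the sixth lay within their range. The difference was 0.14 ± 0.035 (log2 fold change ± SE, adjusted p = 0.0715). It was 0.12 ± 0.049 in females and 0.17 ± 0.049 in males. DESeq2 gave the same size with an adjusted p of 0.00744. In limma the adjusted p fell to 0.0229 without HT vehicle male 2 and to 0.0150 without WT vehicle male 4, and with 1 of the other libraries left out it reached up to 0.260. Without the 11 libraries high in tissue markers the difference was 0.13 ± 0.052 (adjusted p = 0.666). The exons of Grin1 share 1307 bases with the antisense gene Grin1os, which has no row in the table, and the strand setting of the counting is not stated.

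Other NMDA receptor genes had differences between -0.066 and 0.070: Grin2a, the main subunit gene of mature cortical synapses, 0.0034 ± 0.076, and Grin2d, a subunit gene enriched in interneurons, 0.070 ± 0.11. All 4 AMPA receptor genes had small negative estimates, between -0.047 for Gria1 and -0.019 for Gria2, with intervals from -0.16 to 0.074, and none passed the test. The 6 kainate and delta receptor genes ran from -0.10 for Grik3 to 0.13 for Grik4. The 6 metabotropic receptor genes ran from -0.027 for Grm5, which is coupled to phospholipase C, to 0.15 ± 0.11 for Grm2, a presynaptic receptor that lowers transmitter release.

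Among scaffolds, Shank2, a scaffold gene linked to autism, had the smallest p. It ran from 7270 to 8438 with a median of 8055 in HT vehicle libraries and from 6261 to 8719 with a median of 7252 in WT, so the ranges overlapped at both ends of HT. The difference was 0.12 ± 0.058 (adjusted p = 0.398), and 0.048 ± 0.057 without the 11 libraries high in tissue markers. Dlgap genes, which link Dlg to Shank proteins, were positive in 4 of 4, from 0.0074 for Dlgap1 to 0.090 for Dlgap2, with Dlgap4 at 0.062 ± 0.037 (adjusted p = 0.526). Dlg2 (PSD-93) had -0.081 ± 0.047 (adjusted p = 0.511), and Dlg4 had 0.073 ± 0.045 (adjusted p = 0.549), or 0.029 ± 0.053 without those 11 libraries. Camk2a had 0.076 ± 0.067 and Camk2b 0.028 ± 0.040. Over the 36 genes the median was 0.0093 and 20 were positive, beside a median of 0.00011 over all genes and 50.1% positive.

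**Figure D2:**
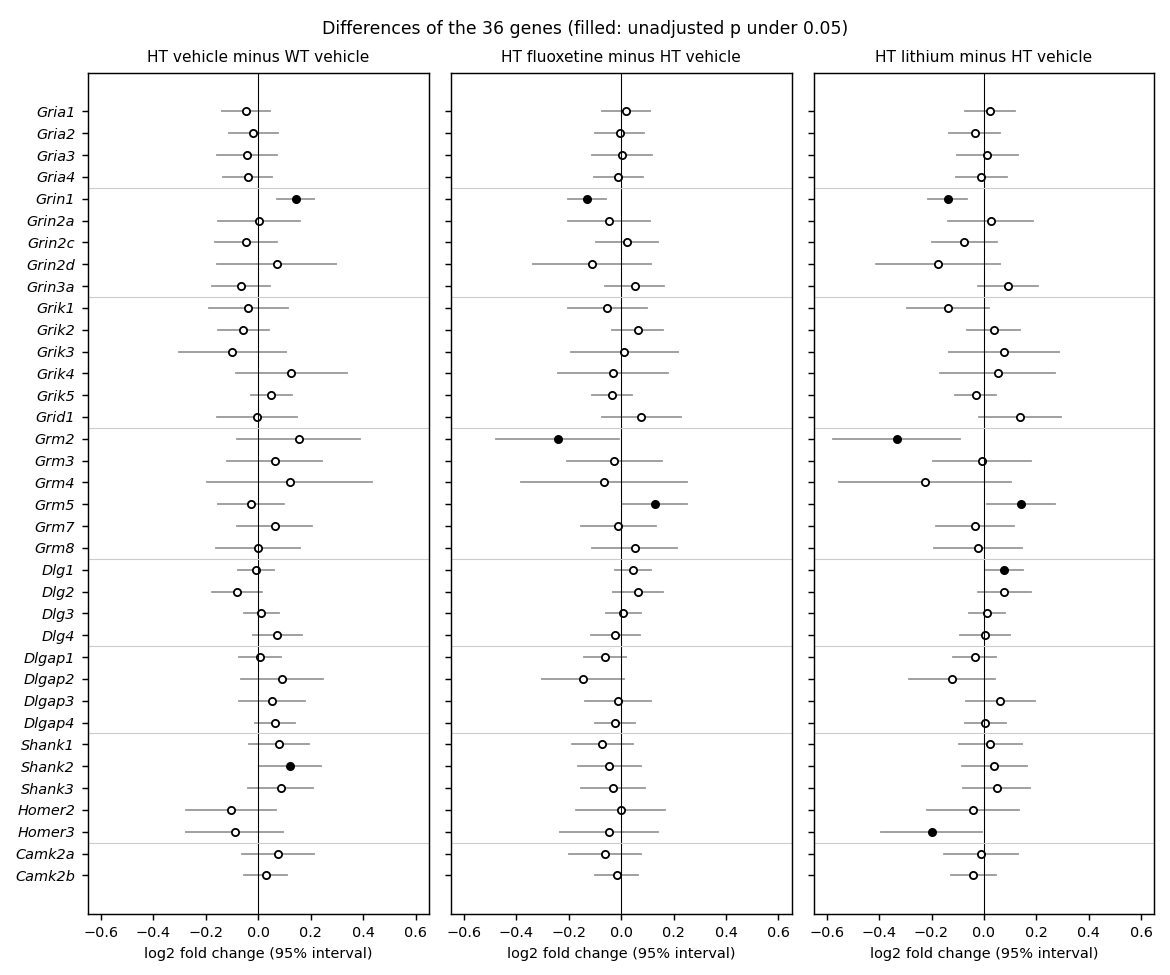
Log2 fold change with its 95% interval for each of the 36 genes in HT vehicle minus WT vehicle, HT fluoxetine minus HT vehicle and HT lithium minus HT vehicle, grouped by family, with filled points for an unadjusted p under 0.05. Grin1 is filled in all 3 panels, at 0.14, -0.13 and -0.14, and the 3 panels share the HT vehicle libraries.

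Each drug was set against vehicle in HT mice. Both comparisons use the same HT vehicle libraries, which also stand in the comparison with WT, so their values are given side by side and are not independent of each other. For fluoxetine, limma called 0 of 17881 genes (0%) and 0 of the 36. At an unadjusted p under 0.05 there were 3 of the 36 against 7.81% of all genes. By edgeR the calls were 0 genes, and by DESeq2 6 genes with none of the 36 among them. For lithium, limma called 0 genes (0%) and 0 of the 36, with 5 of the 36 at an unadjusted p under 0.05 against 11.4% of all genes. By edgeR the calls were 0 genes, and by DESeq2 32 genes, of which 1 was a member, Grin1. The 95% interval lay within 1.2-fold for 32 of the 36 under fluoxetine (59.8% of all genes) and for 26 under lithium (56.3%). No member had libraries without overlap, against 0.0615% of all genes for fluoxetine and 0.542% for lithium.

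Grin1 had the smallest p of the 36 in both. Its libraries ran from 15913 to 17007 (median 16648) in HT fluoxetine and from 16127 to 17113 (median 16410) in HT lithium, against 16784 to 19259 (median 18194) in HT vehicle. Below every HT vehicle library lay 5 of 8 fluoxetine and 4 of 7 lithium libraries. The difference was -0.13 ± 0.035 for fluoxetine (adjusted p = 0.402) and -0.14 ± 0.036 for lithium (adjusted p = 0.248), and DESeq2 gave an adjusted p of 0.0425 for lithium. With the means of both tissue marker lists in the model the estimates were -0.13 ± 0.038 and -0.15 ± 0.040. All 15 libraries of the drug arms lay within the WT range of 14817 to 17719. The lowest WT library was male 1, with the next at 15764, and how many genes meet the same criterion was not counted.

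Grm2 (ENSMUSG00000023192, chromosome 9, 106643095 to 106656082, minus strand) ran from 1666 to 3363 (median 2275) in HT fluoxetine libraries and from 1915 to 2598 (median 2077) in HT lithium, against 2435 to 3329 (median 2542) in HT vehicle. Below every HT vehicle library lay 5 of 8 fluoxetine and 6 of 7 lithium libraries. The difference was -0.24 ± 0.11 for fluoxetine (adjusted p = 0.626) and -0.33 ± 0.12 for lithium (adjusted p = 0.308). The olfactory marker mean was 0.0063 ± 1.2 in HT fluoxetine and -1.02 ± 1.8 in HT lithium, against 0.53 ± 0.69 in HT vehicle (SD, centred log2 scale). The striatal marker mean was 0.47 ± 1.2 in HT fluoxetine and -0.092 ± 0.71 in HT lithium, against -0.42 ± 0.25 in HT vehicle. With the means of both lists in the model the estimates of Grm2 were -0.081 ± 0.076 and -0.14 ± 0.079, and without the 11 libraries high in these markers they were -0.16 ± 0.083 and -0.21 ± 0.070. WT vehicle libraries ran from 1714 to 3011 (median 2456).

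Grm5, the postsynaptic receptor that Homer proteins bind, ran from 3885 to 5957 (median 5446) in HT fluoxetine and from 4706 to 5770 (median 5445) in HT lithium, against 4712 to 5108 (median 4797) in HT vehicle. Above every HT vehicle library lay 6 of 8 and 6 of 7 libraries, and 1 library of each drug arm lay below all of them. The difference was 0.13 ± 0.061 for fluoxetine (adjusted p = 0.633) and 0.14 ± 0.063 for lithium (adjusted p = 0.406). With the marker means in the model it was 0.074 ± 0.056 and 0.067 ± 0.059, and without the 11 libraries 0.096 ± 0.077 and 0.11 ± 0.065. Dlg1, whose protein binds AMPA receptor subunits, ran from 4953 to 5257 (median 5052) in HT lithium, against 4605 to 5085 (median 4789) in HT vehicle. Of the 6 HT vehicle libraries, 5 lay below every lithium library, and the difference was 0.076 ± 0.035 (adjusted p = 0.414), or 0.039 ± 0.035 with the marker means in the model and 0.072 ± 0.039 without the 11 libraries.

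Homer3 ran from 186 to 233 (median 214) in HT lithium libraries and from 216 to 269 (median 251) in HT vehicle, a difference of -0.20 ± 0.093 (adjusted p = 0.427) that was -0.094 ± 0.086 with the marker means and -0.20 ± 0.089 without the 11 libraries. Under fluoxetine, the scaffold gene Dlgap2 had -0.15 ± 0.076 (adjusted p = 0.647) and Dlgap1 -0.063 ± 0.039 (adjusted p = 0.704). The size of the Dlgap2 value rested largely on HT fluoxetine male 4, at 1669 beside a median of 2715 in its arm, and was -0.060 ± 0.046 without it. Dlgap2 ran from 2479 to 2764 in HT lithium and from 2725 to 2980 in HT vehicle. Below every HT vehicle library lay 4 of 8 fluoxetine and 6 of 7 lithium libraries, and how many genes meet the same criterion was not counted. AMPA receptor genes lay between -0.011 and 0.018 under fluoxetine and between -0.035 and 0.024 under lithium, with intervals from -0.11 to 0.12 and from -0.13 to 0.13. Over the 36 genes the median was -0.020 with 12 positive for fluoxetine (all genes -0.0044, 47.8% positive) and -0.0020 with 18 positive for lithium (all genes -0.0037, 48.4% positive).

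**Figure D3:**
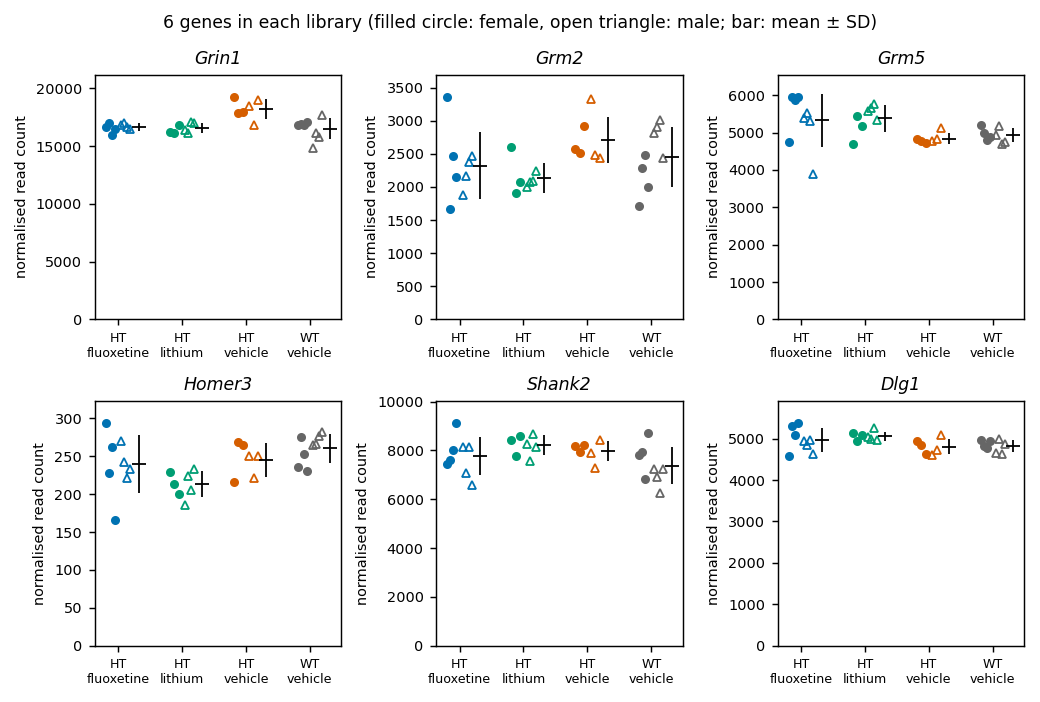
Normalised read counts of Grin1, Grm2, Grm5, Homer3, Shank2 and Dlg1 in each library (filled circles female, open triangles male) of HT fluoxetine, HT lithium, HT vehicle and WT vehicle, with the mean and 1 SD beside each arm. For Grin1, 5 of 6 HT vehicle libraries lie above all WT libraries, and the arms of every gene overlap.

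Lithium and fluoxetine were also set against each other in HT mice, a comparison without vehicle libraries. Limma called 0 genes (0%), with 626 of all genes (3.5%) and 0 of the 36 at an unadjusted p under 0.05, edgeR called 0 and DESeq2 2, none of them a member. The smallest p belonged to Shank1 (0.096 ± 0.054), Homer3 (-0.15 ± 0.087) and Grin2c (-0.095 ± 0.055), each with an adjusted p of 0.985. With the marker means in the model Shank1 had 0.034 ± 0.053. Without the 11 libraries high in these markers, where female 4 was the only HT fluoxetine female, Homer3 had 0.12 and Grin2c -0.037. For 31 of the 36 the interval lay within 1.2-fold, as for 62.1% of all genes. No member had libraries without overlap, against 0.0447% of all genes.

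Drug-treated HT mice were compared with WT vehicle, a pair of comparisons that share the WT libraries with each other and with the comparison of HT vehicle. For fluoxetine 0 of the 36 were called (0.19% of all genes), and 0 had an unadjusted p under 0.05, against 9.26% of all genes. The smallest p belonged to Grm5 (0.10 ± 0.056, adjusted p = 0.603), Homer3 (-0.14 ± 0.084, adjusted p = 0.641) and Dlgap1 (-0.056 ± 0.036, adjusted p = 0.660). Homer3 had -0.43 without the 11 libraries high in tissue markers, where female 4, at 166, was the only female library of HT fluoxetine. By edgeR and DESeq2 0 of the 36 were called as well. The interval lay within 1.2-fold for 30 of the 36 (60.8% of all genes). No member had libraries without overlap, against 0.0615% of all genes. For lithium 0 of the 36 were called, where 1.9% of all genes were, and 6 had an unadjusted p under 0.05, against 18.6% of all genes. By edgeR 0 were called and by DESeq2 1, Homer3. Over all genes, settings other than leaving 1 library out called up to 588, beside 340 in limma. The interval lay within 1.2-fold for 27 of the 36 (55.4% of all genes), and no member had libraries without overlap (0.442% of all genes).

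Homer3 (ENSMUSG00000003573, chromosome 8, 70282827 to 70294361, plus strand), a scaffold gene better known from cerebellum, had the smallest p. It ran from 186 to 233 (median 214) in HT lithium and from 230 to 282 (median 266) in WT vehicle. Of the lithium libraries, 6 of 7 lay below every WT library, and the remaining one overlapped the lowest. The difference was -0.29 ± 0.087 (adjusted p = 0.0809). The adjusted p was 0.0393 in DESeq2 and 0.0232 with only the groups compared in the fit. Without HT fluoxetine female 1 it was 0.0437 and without HT fluoxetine female 4 it was 0.0220. Both are libraries outside this comparison that enter the shared estimate of the spread. With the marker means in the model the estimate was -0.17 ± 0.081 (adjusted p = 0.417). Without the 11 libraries high in these markers it was -0.31 ± 0.089 (adjusted p = 0.247). HT lithium males 1 and 3, low in the olfactory list, stayed in that last fit, so it leaves this difference between the arms in place. The exons of Homer3 share 874 of their 3440 bases with Ddx49 on the opposite strand, and Ddx49 differed by 0.016 ± 0.040.

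The other members with an unadjusted p under 0.05 between HT lithium and WT vehicle were Shank2 (0.16 ± 0.056, adjusted p = 0.128), Grik1 (-0.18 ± 0.071, adjusted p = 0.181), Shank3 (0.14 ± 0.058, adjusted p = 0.209), Grin2c (-0.12 ± 0.055, adjusted p = 0.238) and Dlg1 (0.069 ± 0.032, adjusted p = 0.250). With the marker means in the model Shank3, a scaffold gene mutated in Phelan-McDermid syndrome, had 0.037 ± 0.046 and Shank2 0.097 ± 0.050. Markers of several cell types differed in the same direction or against it in these arms. The mean of cortical excitatory neuron markers was 0.11 ± 0.095 in HT lithium and -0.098 ± 0.14 in WT, and that of astrocyte markers was -0.054 ± 0.068 and 0.070 ± 0.072 (SD, centred log2 scale). The widest gap was that of the olfactory list, at -1.02 ± 1.8 in HT lithium and 0.49 ± 1.2 in WT. The striatal list had -0.092 ± 0.71 and -0.081 ± 0.81, and endothelial and mural markers -0.026 ± 0.037 and 0.10 ± 0.12. Summed levels of the excitatory markers ran from 48291 to 60872 in HT lithium and from 43165 to 58620 in WT, and those of the 8 astrocyte markers from 47077 to 54961 and from 50826 to 57269. None of the excitatory neuron or astrocyte markers had a median under 10. The part of cell types or other tissue in the result was not tested.

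Female and male libraries were compared over all 4 arms. None of the 36 were called by limma, where 0.257% of all genes were, nor by edgeR or DESeq2, and 3 had an unadjusted p under 0.05, against 8.18% of all genes. These were Dlg4 (0.081 ± 0.032, adjusted p = 0.454), Shank2 (0.085 ± 0.040, adjusted p = 0.590) and Dlgap4 (0.053 ± 0.026, adjusted p = 0.603), each higher in females. For all 36 the interval lay within 1.2-fold, as for 71.2% of all genes.

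The difference between the sexes in each drug or genotype comparison was tested directly. None of the 36 were called by limma, edgeR or DESeq2 for the genotype (0% of all genes), fluoxetine (0.106%) or lithium comparison (0%), and 2, 3 and 0 of them had an unadjusted p under 0.05, against 5.6%, 13.6% and 2.92% of all genes. The smallest p belonged to Gria2 under fluoxetine, where the fluoxetine effect was 0.13 ± 0.064 in females and -0.15 ± 0.064 in males, a difference of 0.28 ± 0.091 (adjusted p = 0.184). Gria2 ran from 20698 to 23491 in HT fluoxetine females and from 19669 to 20595 in HT vehicle females, and the ranges did not overlap, as was so for 9.13% of all genes. It ran from 16289 to 21434 in HT fluoxetine males and from 20941 to 22322 in HT vehicle males. Without HT fluoxetine male 4, the lowest library, the difference between the sexes was 0.19 ± 0.067. The median of the 36 for this difference was 0.11 (all genes 0.0068), and 0.044 without that library. In the genotype comparison Gria4 had 0.21 ± 0.091, Grik5 -0.16 ± 0.074 and Shank1 -0.21 ± 0.11, each with an adjusted p of 0.847. In the lithium comparison Grin2c had 0.15 ± 0.12, Grik4 -0.25 ± 0.21 and Gria4 -0.097 ± 0.094, each with an adjusted p of 0.9997.

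The members were also read against the olfactory marker mean of the libraries. The slope on it within groups was fitted for every gene, in log2 units of the gene per log2 unit of the marker mean, which ran from -3.48 to 1.95 over libraries. Limma called 13 of the 36, 5 rising and 8 falling with the marker mean, beside 13.8% of all genes (2465), with 7.66% rising and 6.12% falling. By edgeR 13 were called and by DESeq2 15. Of the metabotropic receptor genes 5 of 6 were called, Grm4, Grm2 and Grm8 rising and Grm7 and Grm3 falling. The part of other tissue in these slopes was not tested.

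Grm4 had the steepest slope of the 36, 0.21 ± 0.026 (adjusted p = 2.18e-06). Its normalised read counts ran from 1018 to 2038 in HT fluoxetine, 918 to 1543 in HT lithium, 1136 to 1750 in HT vehicle and 994 to 1752 in WT vehicle libraries, so each arm held both low and high libraries. Grin2d rose by 0.12 ± 0.022 (adjusted p = 0.000285), Grm2 by 0.10 ± 0.022 (adjusted p = 0.00189), Grm8 by 0.079 ± 0.020 (adjusted p = 0.00722) and Homer3 by 0.082 ± 0.024 (adjusted p = 0.0215). The genes that fell were Gria3 (-0.065 ± 0.012), Camk2a (-0.075 ± 0.014), Shank3 (-0.068 ± 0.014), Dlgap3 (-0.065 ± 0.015), Grm7 (-0.067 ± 0.018), Grm3 (-0.080 ± 0.023), Dlg4 (-0.039 ± 0.012) and Shank2 (-0.045 ± 0.015), with adjusted p-values from 0.000559 for Gria3 to 0.0443 for Shank2. These include the main forebrain CaMKII subunit and scaffolds of the density. Of the kainate and delta receptor genes 0 of 6 were called, and 2 had an unadjusted p under 0.05. The share of all genes at that unadjusted p is not given here, and 13.8% passed even after adjustment. Grin1 had -0.0089. Without the 11 libraries high in the striatal or olfactory list, 1 of the 36 was called, Grm4 (adjusted p = 0.0289). All 13 slopes kept their sign in these 18 libraries and 10 of them stayed within 1.5 times, such as Shank3 at -0.079 ± 0.027, Dlgap3 at -0.073 ± 0.028 and Homer3 at 0.086 ± 0.039. The other 3 were smaller: Grin2d at 0.046 ± 0.037, Grm3 at -0.043 ± 0.028 and Grm2 at 0.063 ± 0.031.

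**Figure D4:**
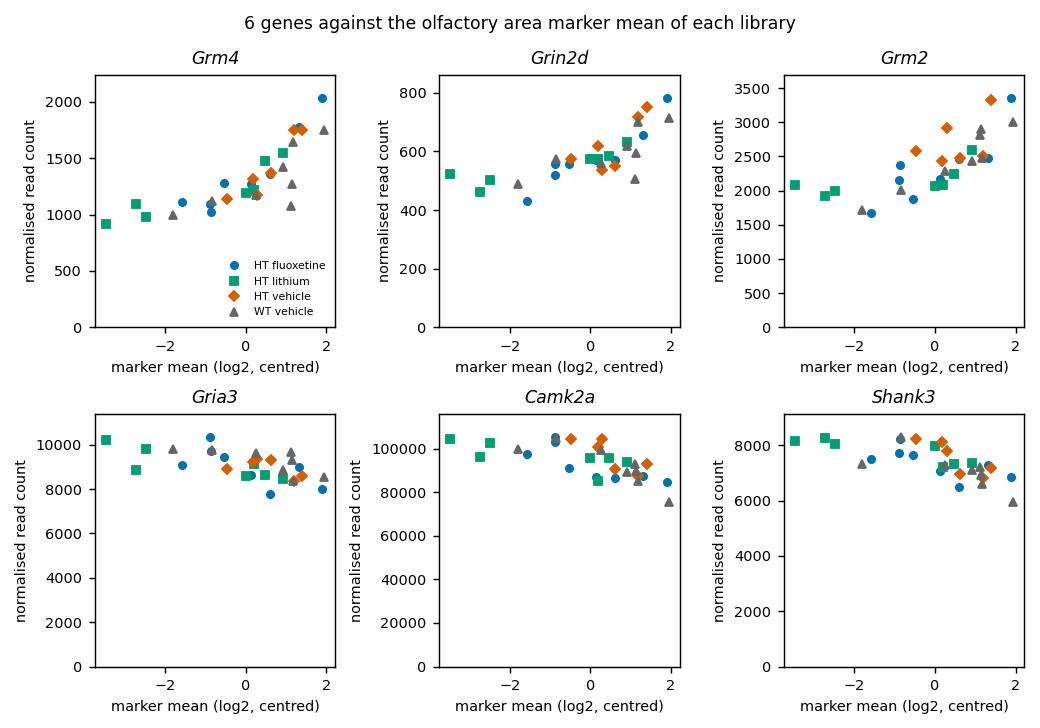
Normalised read counts of Grm4, Grin2d, Grm2, Gria3, Camk2a and Shank3 in each library against the mean of the olfactory area markers (centred log2 scale), with marks for HT fluoxetine, HT lithium, HT vehicle and WT vehicle. The upper 3 genes rise along the axis, with slopes of 0.21, 0.12 and 0.10, and the lower 3 fall, with slopes of -0.065, -0.075 and -0.068.

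For the striatal marker mean, which ran from -0.74 to 2.09, limma called 0 of the 36 (1.33% of all genes) and edgeR 0, with 8 at an unadjusted p under 0.05 in limma, all of them falling, against 8.92% of all genes in either direction and 3.8% falling. DESeq2 called 1, Grm2. Over all genes, settings other than leaving 1 library out called up to 314, beside 237 in limma. Among the smallest p were those of Grm2 (-0.12 ± 0.034, adjusted p = 0.102), Shank2 (-0.072 ± 0.023), Camk2a (-0.064 ± 0.023) and Homer2 (-0.092 ± 0.033). Grik3 had the steepest rising slope, 0.084 ± 0.046 (adjusted p = 0.653). Homer2 passed without HT fluoxetine male 4 (adjusted p = 0.0287), and Grm2 passed without HT lithium female 2 (0.0484) or HT lithium female 3 (0.0460), all in limma. With 1 library left out the adjusted p reached up to 0.801 for Homer2 and 0.539 for Grm2.

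**Figure D5:**
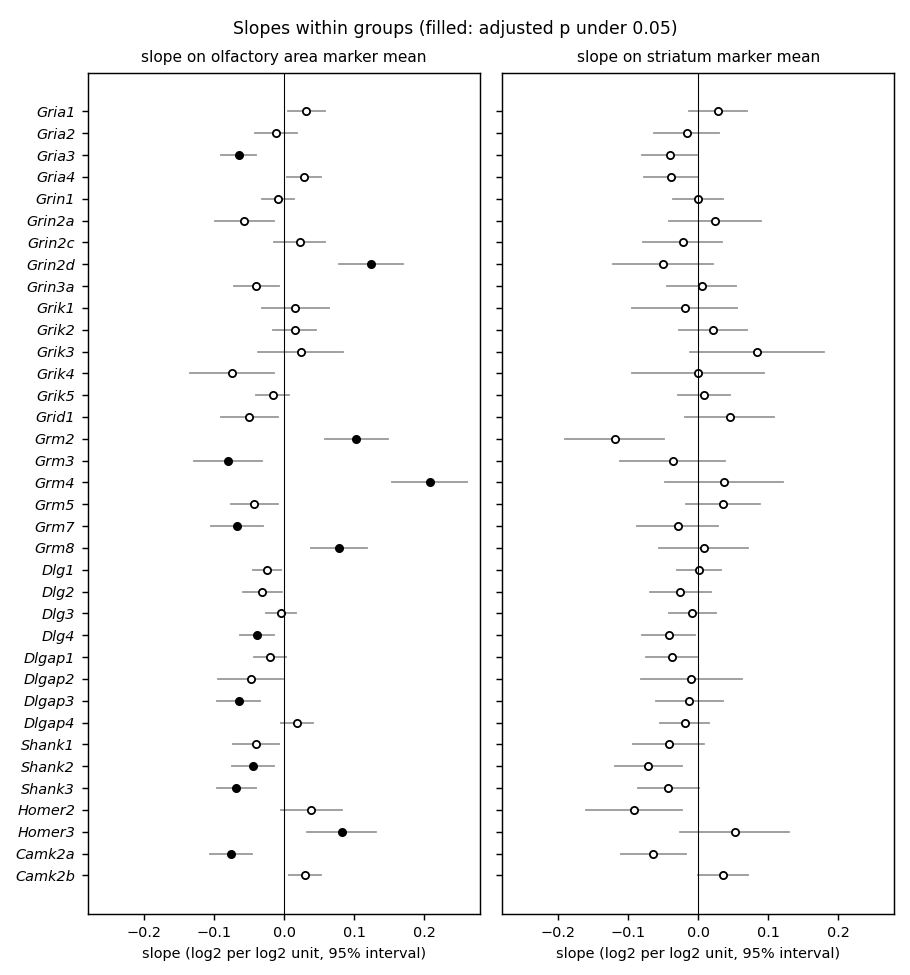
Slope of each of the 36 genes on the olfactory area marker mean and on the striatum marker mean within groups, in log2 per log2 unit with its 95% interval, with filled points for an adjusted p under 0.05. On the olfactory axis 13 genes are filled, with Grm4 farthest out at 0.21, and on the striatal axis none are.

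A further 49 genes of the same synapse were listed, of which 47 were tested: other receptor and Homer family genes, auxiliary and trafficking proteins of AMPA and kainate receptors, and signalling and adaptor proteins of the density. Between HT lithium and WT vehicle limma called 2 of these 47, beside 1.9% of all genes, both higher in HT lithium. By edgeR the same 2 were called. By DESeq2 3 were, with the AMPA receptor auxiliary gene Cnih3 added (0.19 ± 0.054, adjusted p = 0.0170), named after its values were seen. Homer1, the main cortical Homer gene, whose short form is induced by activity, ran from 5510 to 6640 (median 6056) in HT lithium and from 4668 to 6047 (median 5076) in WT vehicle, and rose by 0.25 ± 0.050 (adjusted p = 0.00961). Its long and short forms were summed in 1 row. Baiap2 (IRSp53), which binds Shank proteins and actin, ran from 7904 to 8542 (median 8354) in HT lithium and from 6154 to 8243 (median 7778) in WT vehicle, and rose by 0.18 ± 0.039 (adjusted p = 0.0145). The Homer1 call was lost without HT lithium female 3 (0.22 ± 0.052, adjusted p = 0.0571) and without the 11 libraries high in the tissue markers (0.28 ± 0.056, adjusted p = 0.0797). The Baiap2 call was lost with the marker means in the model (0.15 ± 0.041, adjusted p = 0.0784) and without those 11 libraries (0.16 ± 0.052, adjusted p = 0.293). In HT vehicle libraries Homer1 ran from 4794 to 5678 (median 5329) and Baiap2 from 7265 to 8446 (median 8362).

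Limma and edgeR called none of the 47 in the other comparisons between arms. DESeq2 called 2 between HT vehicle and WT, Cpt1c (adjusted p = 0.0237) and Agap2, a signalling gene named after its values were seen (adjusted p = 0.0463), and 1 for lithium against HT vehicle, Homer1 (adjusted p = 0.0483). Between HT vehicle and WT, the smallest p belonged to Cpt1c, whose protein is found in AMPA receptor complexes (0.13 ± 0.032, adjusted p = 0.0911), and Baiap2 (0.14 ± 0.040, adjusted p = 0.130). In limma Cpt1c passed without HT vehicle male 2 (0.0320) or WT vehicle male 4 (0.0227) and Baiap2 without WT vehicle male 4 (0.0215), and with 1 other library left out the adjusted p reached up to 0.278 for Cpt1c and 0.401 for Baiap2. For fluoxetine against HT vehicle they belonged to the immediate early gene Arc (-0.31 ± 0.093, adjusted p = 0.427) and the kainate receptor auxiliary gene Neto2 (0.16 ± 0.058, adjusted p = 0.490). For lithium they belonged to Homer1 (0.21 ± 0.054, adjusted p = 0.248) and Pick1, whose protein takes AMPA receptors from the surface (-0.099 ± 0.038, adjusted p = 0.349). Grin2b, known as a gene that TBR1 activates and named here after its values were seen, had 0.0056 ± 0.070 between HT vehicle and WT, with an interval from -0.14 to 0.15. On the olfactory marker mean limma called 22 of the 47, 8 rising and 14 falling, beside 13.8% of all genes. The steepest was the AMPA receptor auxiliary gene Cacng5 at 0.52 ± 0.029, the one gene of the 47 also called without the 11 libraries high in tissue markers (0.50 ± 0.050). On the striatal mean 1 was called, beside 1.33% of all genes, the AMPA receptor auxiliary gene Shisa6 at 0.20 ± 0.047 (adjusted p = 0.0213). Its call was lost in 5 of 40 alternatives, among them without HT fluoxetine male 2 (0.0695) or HT fluoxetine male 3 (0.123) and without the 11 libraries (0.54 ± 0.22, adjusted p = 0.826).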

How the data were processed

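Per the labels' protocols, a stranded kit with poly(A) selection was used. The submitters' processing notes name Salmon 0.11.2, R 3.6.0, DESeq2 1.19.11 and GRCm38, and the annotation release and strand setting are not given in the sources used here. The deposited table holds a signal per gene and library, read counts that the authors divided by 1 size factor per library, as the values show: 100% were whole multiples of 1 step per library within 0.0001. Whole reads were recovered from these steps. Each library held between 22.81 M and 31.71 M of them, which limits how precisely low genes are measured. Names, positions and exon lengths came from an annotation of GRCm38 for 18227 of 18240 identifiers. Exon lengths count each base found in any annotated transcript of a gene once.

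The 17881 genes with 10 or more in 3 or more libraries were tested on log2(value + 1) with limma 3.58.1 in R 4.3.3. The fit had 1 mean for each of the 8 groups of genotype, treatment and sex (21 residual degrees of freedom), an intensity trend, two-sided tests, and Benjamini-Hochberg adjustment over all genes tested at 0.05. Fold changes are on that scale, which understates changes of low genes. A difference over both sexes averages that in females and that in males. Slopes on the marker means were fitted with both means as added terms. Errors are SE for fold changes and slopes, and SD for group values. The recovered reads were also tested with DESeq2 1.42.0 and edgeR 4.0.16. Percentages of all genes called are those of limma. The code was tested on simulated data with known changes.

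The members and all lists were chosen with earlier results of these data known. 1 marker gene first listed for cortical excitatory neurons is not reported here and was left out of its list. Named were members past the threshold, and those with the smallest p: 5 for genotype, fluoxetine and lithium against vehicle, 3 in other comparisons and 6 per slope. From the further list, those past the threshold and 2 with the smallest p for genotype and each drug were named. Other members are given as ranges, as examples of their family or for their place in the order of levels.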

Additional observations from a re-analysis of the deposited data

Results flagged for a closer look

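In groups of 4 to 10 libraries, 148 combinations of gene and arm were examined (36 members and Tbr1 in 4 arms), and in 7 of them 1 library lay far from the others by Dixon's test, which chance alone gives in about 1 in 20 groups. HT fluoxetine male 4 was lowest for Gria2 at 16289 normalised read counts, with the next library at 20198, and for Dlgap2 at 1669, with the next at 2435. HT lithium female 1 was lowest for Grin3a at 1120 (next 1320) and for Grik4 at 580 (next 731). HT lithium female 2 was lowest for Gria4 at 3066 (next 3425). HT vehicle male 3 was highest for Grm5 at 5108 (next 4824). HT fluoxetine female 1 was lowest for Tbr1 at 2858 (next 3939).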

How the results depend on the processing

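The count of members called was 0 under all 42 alternatives for fluoxetine against HT vehicle, lithium against fluoxetine and fluoxetine against WT. By DESeq2 it was 1 for genotype, for lithium against HT vehicle, for lithium against WT and for the striatal slope, and it was 1 for lithium against WT with only the groups compared. Leaving out 1 library at a time gave 0 to 1 for genotype, lithium against WT and the striatal slope, and 9 to 15 for the olfactory slope, which was 1 without the libraries high in tissue markers, where all 13 slopes kept their sign and 10 stayed within 1.5 times. Without those libraries the estimate of Homer3 for lithium against fluoxetine turned to 0.12 and the striatal slope of Dlg4 to 0.020, and the cause was not tested. Over all genes the counts moved more. For genotype, 37 genes were called, 2 to 176 with 1 library left out and 0 to 212 otherwise. For lithium against WT they were 340, 85 to 722 and 17 to 588. For fluoxetine against WT they were 34, 10 to 98 and 0 to 96. For sex they were 46, 24 to 68 and 22 to 98, and for the sex difference under fluoxetine 19, 4 to 50 and 1 to 198. For the striatal slope they were 237, 89 to 289 and 0 to 314, and for the olfactory slope 2465, 1771 to 2627 and 205 to 2556. For fluoxetine and lithium against HT vehicle, where 0 were called, they reached 6 and 32. Deviations of same-numbered libraries had correlations from -0.26 to 0.31 with a median of -0.014, beside a median of 0.0044 for different numbers. Of 29 libraries, 11 were most like one with their own number, and the share that chance gives was not computed. Numbers were taken from the sample titles, and the library names of the HT vehicle females carry other numbers. A pairing by number is therefore not excluded. With the replicate number as a block, 0 members were called in every comparison of groups, 12 on the olfactory slope, and 82 genes for genotype.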
